A study of Homo sapiens with 6 samples.

Results

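Actin filaments and the myosin motors that pull on them give a cell its shape, its contractile force and its means of crawling. The genes of this machinery were followed in 786-O cells, an established human cell line from a clear cell renal carcinoma, after knockdown of YB1. Genes were taken by symbol alone, without regard to their values: the actins (ACTA1, ACTA2, ACTB, ACTC1, ACTG1 and ACTG2), the alpha-actinins (ACTN1 to ACTN4), every gene of the MYH, MYL, MYLK and MYO families, the tropomyosins (TPM1 to TPM4), the filament-binding genes TAGLN, TAGLN2, CNN1, CNN2, CNN3 and CALD1, and the transcription factor SRF. In all, 76 of the 20030 genes in the deposited table qualified.

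The study compared 2 groups of 3 libraries. In the shYB1 group, 786-O cells carried a lentiviral small hairpin RNA (shRNA) against YB1, and in the vector group they carried a scrambled, nonsense shRNA. Both groups were puromycin-selected cells of the same line at passages 16 to 18, and total RNA was sequenced. The series' description mentions more than 1 shRNA sequence against YB1, whereas the labels give a single shYB1 group, so which shRNA each library carried is not known here and one sequence cannot be told apart from another. Nothing states that the replicates were separate infections or cultures, so the p-values below measure only the spread between these libraries.

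Values are FPKM (fragments per kilobase of transcript scaled to the mapped fragments of the library), which are corrected for gene length and so allow levels of different genes to be compared. FPKM totals ran from 282736 to 295887 per library, highest in vector replicate 3. The absolute depth is unknown, and the spacing of the lowest values placed the relative depth between 0.979 and 1.10 times that of shYB1 replicate 1. YBX1, the gene of YB1, averaged 372 ± 5.70 FPKM with vector against 169 ± 4.04 FPKM with shYB1 (SD over 3 libraries each), or 54.7% lower. The renal lineage factor PAX8 (75.6 to 78.7 FPKM over the 6 libraries), the epithelial keratin KRT8 (201 to 220.2) and vimentin (VIM, 1366 to 1450.0) were present in every library, whereas 4 of 8 skeletal and cardiac muscle markers (CKM, MYOD1, TNNT2 and TNNT3) were listed at 0 in all of them. That list summed to 0.0258 to 0.0880 FPKM in vector and 0.0283 to 0.137 FPKM in shYB1 libraries. NDUFA4L2, a marker of clear cell carcinoma, was nearly absent (0.171 to 0.50 FPKM).

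As background, actin monomers polymerise into filaments on which tropomyosins lie end to end and decide which other proteins may bind. Myosin II is built from paired heavy chains with essential and regulatory light chains, and its motor is switched on when a kinase such as MYLK phosphorylates the regulatory light chain. Calponins and caldesmon bind the filament and restrain the motor, alpha-actinins cross-link filaments, and unconventional myosins carry membranes and organelles along them. SRF activates many of these genes through a DNA element called the CArG box, together with cofactors that sense the pool of free actin.

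Of the 76 genes, 36 averaged 1 FPKM or more across both groups and were tested, and 40 lay under this limit. The machinery of a non-muscle cell dominated. ACTB and ACTG1, the cytoplasmic beta- and gamma-actins found in every cell, led at a mean of 1386 and 1148 FPKM over the 6 libraries. They were followed by TAGLN2 (transgelin 2, an actin-bundling protein, 397 FPKM), MYL6 (the essential light chain of non-muscle myosin, 345 FPKM), MYH9 (the heavy chain of non-muscle myosin IIA, 205 FPKM), MYL12B and MYL12A (regulatory light chains, 165 and 125 FPKM) and ACTN4 (the non-muscle alpha-actinin 4, 113 FPKM). TPM4 (62.2 FPKM) and CNN3 (calponin 3, 61.5 FPKM) completed the 10 highest. The library ranges of ACTB and ACTG1 did not meet, and neither did those of MYL12B and MYL12A. TPM4 and CNN3 were separated in each group but in opposite order: CNN3 was above TPM4 in all 3 vector libraries, and TPM4 was above CNN3 in all 3 shYB1 libraries.

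**Figure D1:**
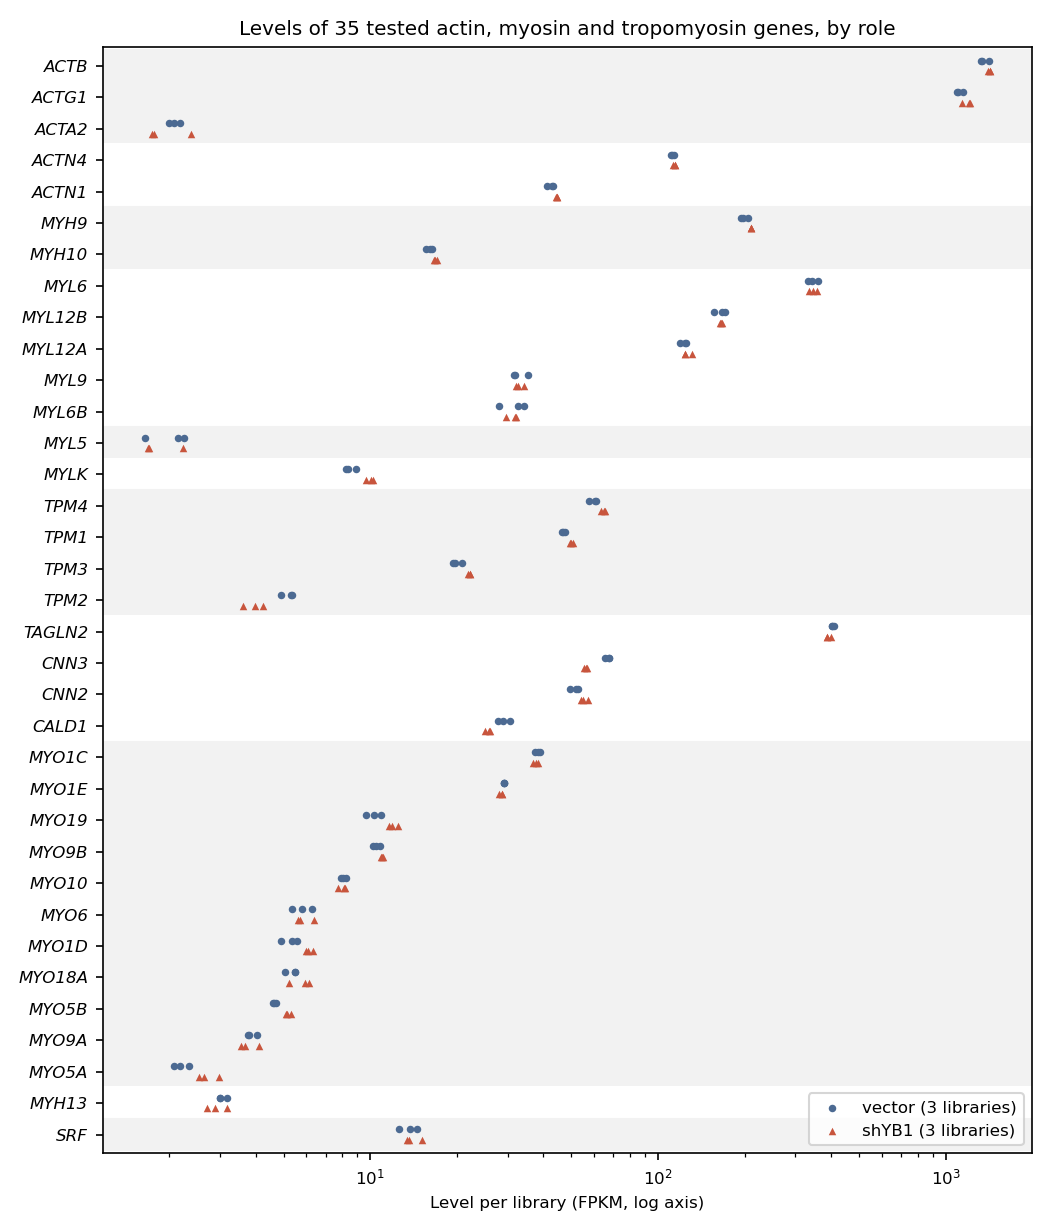
FPKM (log axis) of 35 tested genes in each of the 3 vector libraries (circles) and 3 shYB1 libraries (triangles), ordered by role and then by mean level. Levels span from about 2 FPKM for ACTA2 and MYL5 to a mean of 1386 FPKM for ACTB, and the symbols of the 2 groups lie close together for every gene.

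Within each library, the 76 genes summed to 4319.8, 4337 and 4519 FPKM across vector replicates 1, 2 and 3, against 4482, 4541 and 4576 FPKM across the shYB1 replicates in the same order. The groups overlapped in this sum, because vector replicate 3 exceeded shYB1 replicate 1. As a share of all FPKM in the library, which removes the library total, the sum was 1.53% in each vector library and 1.57% in each shYB1 library (two-sided exact permutation test, p = 0.1, the least that 3 libraries against 3 can give). ACTB and ACTG1 alone made up 56.2 ± 0.322% of the sum in vector and 57.3 ± 0.480% in shYB1 cells (SD, n = 3 each).

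YB1 knockdown moved this machinery by small amounts and in both directions. With limma, 9 of the 36 tested genes differed at an adjusted p below 0.05 between shYB1 and vector cells, or 25.0%, against 25.7% of all 10439 genes tested. The tropomyosin TPM2, the calponin CNN3 and the caldesmon CALD1 were lower. The kinase MYLK, the motors MYO19, MYO1D and MYO5A, and the tropomyosins TPM3 and TPM4 were higher. Counted by direction, 6 of 36 were higher (16.7%, against 18.7% of all genes tested) and 3 were lower (8.33%, against 6.93%). The share of genes called in this fit was therefore near that of the whole transcriptome, but it lay above or below it under some alternatives given at the end. No gene of the 36 met the study's own criteria of a 2-fold change with an unadjusted p under 0.05, which 0.220% of all genes tested met. Log2 fold changes, on the log2(FPKM + 0.1) scale throughout, ran from −0.38 to 0.29 with a median of 0.043, and the median of all genes tested was 0.055. The groups did not overlap in 19 of the 36 genes (52.8%, against 42.6% of all genes tested), of which 14 were higher and 5 lower in shYB1 cells (30.1% and 12.5% of all genes tested). In RNA from whole cultures, fewer cells that express a gene and less of its RNA per cell cannot be told apart.

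The balance of directions depended on how libraries were scaled. Once libraries were rescaled by the median of gene ratios (size factors), which centres the bulk of genes on no change, 1 gene was higher (MYLK) and 4 were lower (TPM2, CNN3, CALD1 and TAGLN2), against 11.4% and 12.0% of all genes tested. MYLK, TPM2, CNN3 and CALD1 were called in the same direction under every alternative in which they were tested, whereas MYO19 lost its call under 2 of 14 alternatives, MYO1D under 6 of 14, MYO5A under 6 of 13, and TPM3 and TPM4 under 7 of 14 each. Many of these losses came from leaving out a single library. MYO19 was not called without shYB1 replicate 2 (adjusted p = 0.0675), and TPM4 was not called without vector replicate 1 or without any one of the shYB1 libraries (0.0571 to 0.114, from limma). TPM3 kept its call without vector replicate 3 alone among the libraries left out (0.0135). MYO1D lost it without vector replicate 1 or 2 or shYB1 replicate 1 or 2 (0.0526 to 0.10), and MYO5A without vector replicate 1 or 3 or shYB1 replicate 1 or 3 (0.0608 to 0.119).

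**Figure D2:**
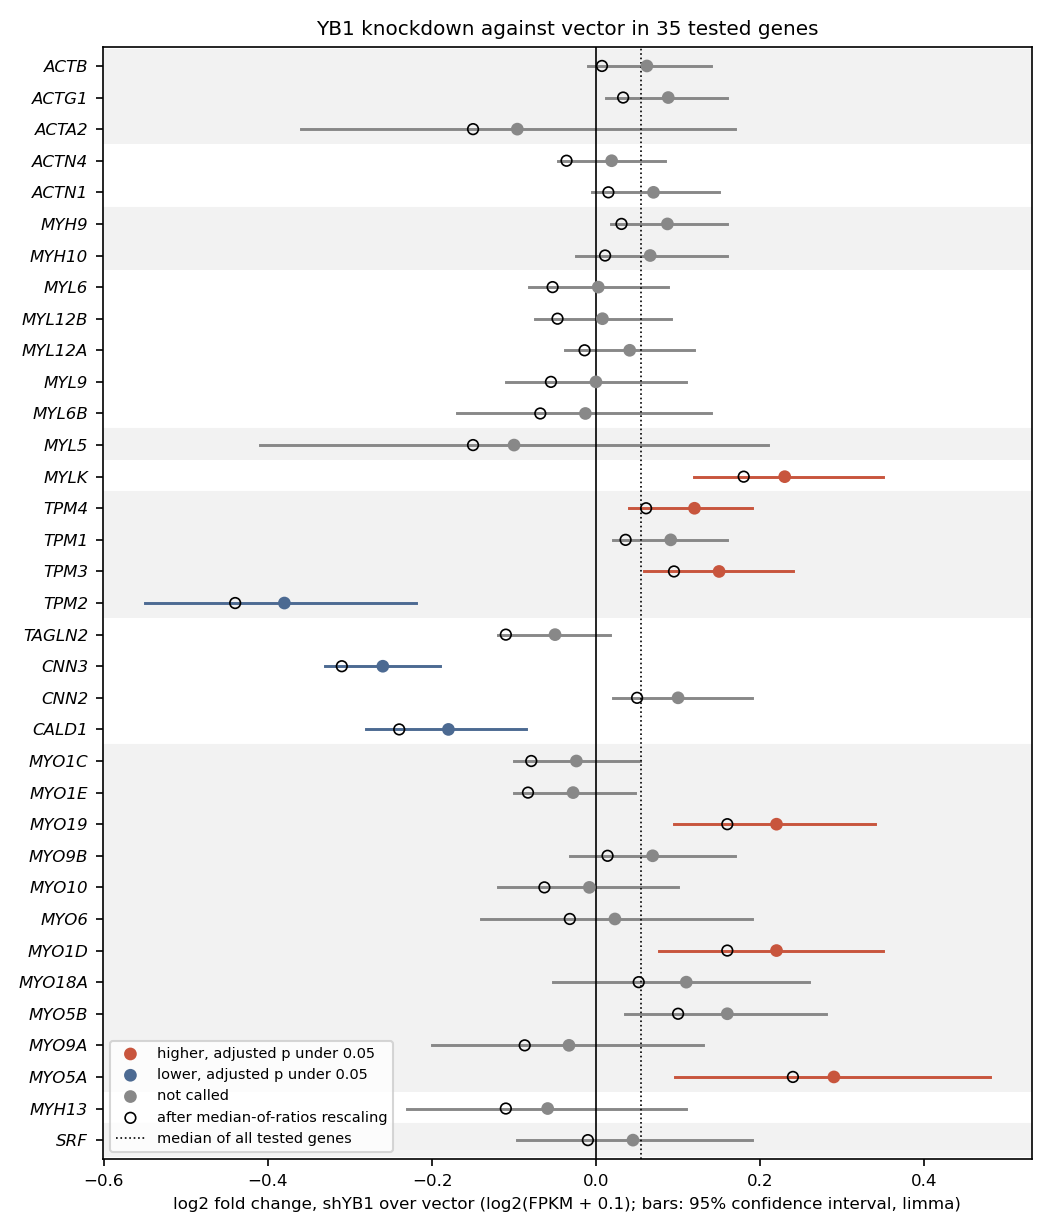
Log2 fold change of shYB1 over vector cells for 35 tested genes, with 95% confidence intervals from limma, called genes in colour, and open circles for the value after median-of-ratios rescaling. TPM2, CNN3 and CALD1 lie to the left of 0 at −0.38, −0.26 and −0.18, and the dotted line marks the median of all tested genes at 0.055.

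The tropomyosins split by gene. TPM2, which encodes beta-tropomyosin and lies on chromosome 9 of GRCh38 (chr9:35681992-35690121, minus strand), had the largest fall of all 36 genes. The vector libraries held 4.89, 5.30 and 5.33 FPKM, against 3.99, 3.62 and 4.24 FPKM after knockdown. Every shYB1 library lay below every vector library, and the mean was 23.7% lower (log2 fold change −0.38, standard error 0.073, adjusted p = 0.00422 from limma). The other tropomyosin genes were all above 0 on the log2 scale. TPM4 (chr19:16067021-16103005, plus strand), a tropomyosin of stress fibres and the most abundant here, rose from 57.8, 61.1 and 60.3 FPKM to 65.5, 63.6 and 65.1 FPKM (log2 fold change 0.12, standard error 0.034, adjusted p = 0.0317 from limma). TPM3 (chr1:154155304-154194648, minus strand) rose from 19.7, 19.4 and 20.8 FPKM to 21.9, 22.2 and 22.3 FPKM (log2 fold change 0.15, standard error 0.041, adjusted p = 0.0236 from limma). In both genes all 3 shYB1 libraries exceeded all 3 vector libraries, but after median-of-ratios rescaling the log2 fold changes shrank to 0.061 and 0.095 with adjusted p of 0.180 and 0.103. TPM1, at 46.5, 47.4 and 46.8 FPKM in vector and 49.6, 50.5 and 49.9 FPKM in shYB1 libraries, did not overlap between groups either but missed the threshold (log2 fold change 0.091, adjusted p = 0.0568 from limma).

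A share or ratio within a library does not depend on its scaling. The pairs and families given below were chosen after their values had been seen. TPM2 supplied 3.80%, 3.98% and 4.0% of tropomyosin FPKM in the 3 vector libraries, against 2.83%, 2.59% and 3.0% in the 3 with shYB1. The TPM2 share was therefore lower in every shYB1 library (exact permutation test, p = 0.1, the smallest possible). By contrast, TPM1 supplied 35.6 ± 0.484% in vector and 35.5 ± 0.519% in shYB1 cells, and the shares of TPM3 and TPM4 overlapped between groups. These are gene-level values, and tropomyosin genes make several proteins from alternative exons, which FPKM per gene do not separate. Reads of TPM4 and TPM3 may also be split with other loci, since 11.7% and 5.50% of the 50-base words in their transcripts occur in another annotated gene, against 0% for TPM2.

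Of the calponins, CNN3 changed. CNN3 (chr1:94896949-94927278, minus strand), the calponin of non-muscle cells, had the smallest adjusted p of the 36 genes. Its values were 67.7, 65.6 and 67.8 FPKM in vector and 56.8, 55.2 and 56.2 FPKM in shYB1 libraries. The gap between groups was several times the spread within them, and the mean was 16.4% lower (log2 fold change −0.26, standard error 0.032, adjusted p = 4.01e-04 from limma, 1.14e-04 to 0.00791 over the alternatives). CNN2, which is expressed in smooth muscle and many other cells, lay at 49.6, 51.7 and 52.9 FPKM in vector and 53.9, 54.7 and 57.1 FPKM in shYB1 libraries. Its groups did not overlap, yet it missed the threshold (log2 fold change 0.10, adjusted p = 0.0666 from limma). The ratio of CNN3 to CNN2 within a library was 1.37, 1.27 and 1.28 in vector and 1.05, 1.01 and 0.984 in shYB1 libraries, so the excess of CNN3 over CNN2 seen in vector cells was close to parity after knockdown. CNN1, the smooth muscle calponin, stayed under the limit for testing with a mean of 0.310 FPKM.

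CALD1 (chr7:134744252-134970728, plus strand), which encodes caldesmon, a tropomyosin-dependent inhibitor of myosin on the filament, was the third gene that fell. It measured 27.9, 30.6 and 29 FPKM in vector and 25.8, 26.1 and 25.1 FPKM in shYB1 libraries, with no overlap (11.9% lower, log2 fold change −0.18, standard error 0.043, adjusted p = 0.0123 from limma). Its ratio to TPM1 within a library was 0.599, 0.645 and 0.620 in vector and 0.521, 0.518 and 0.504 in shYB1 libraries, without overlap. TAGLN2, with 401, 402 and 408 FPKM in vector and 385, 385 and 400.0 FPKM in shYB1 libraries, was not called on FPKM as deposited (log2 fold change −0.050, adjusted p = 0.249 from limma). It was called lower only after median-of-ratios rescaling, at −0.11 with an adjusted p of 0.0190. Its only close sequence relative in the annotation is the pseudogene TAGLN2P1, which holds 6.89% of its words.

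**Figure D3:**
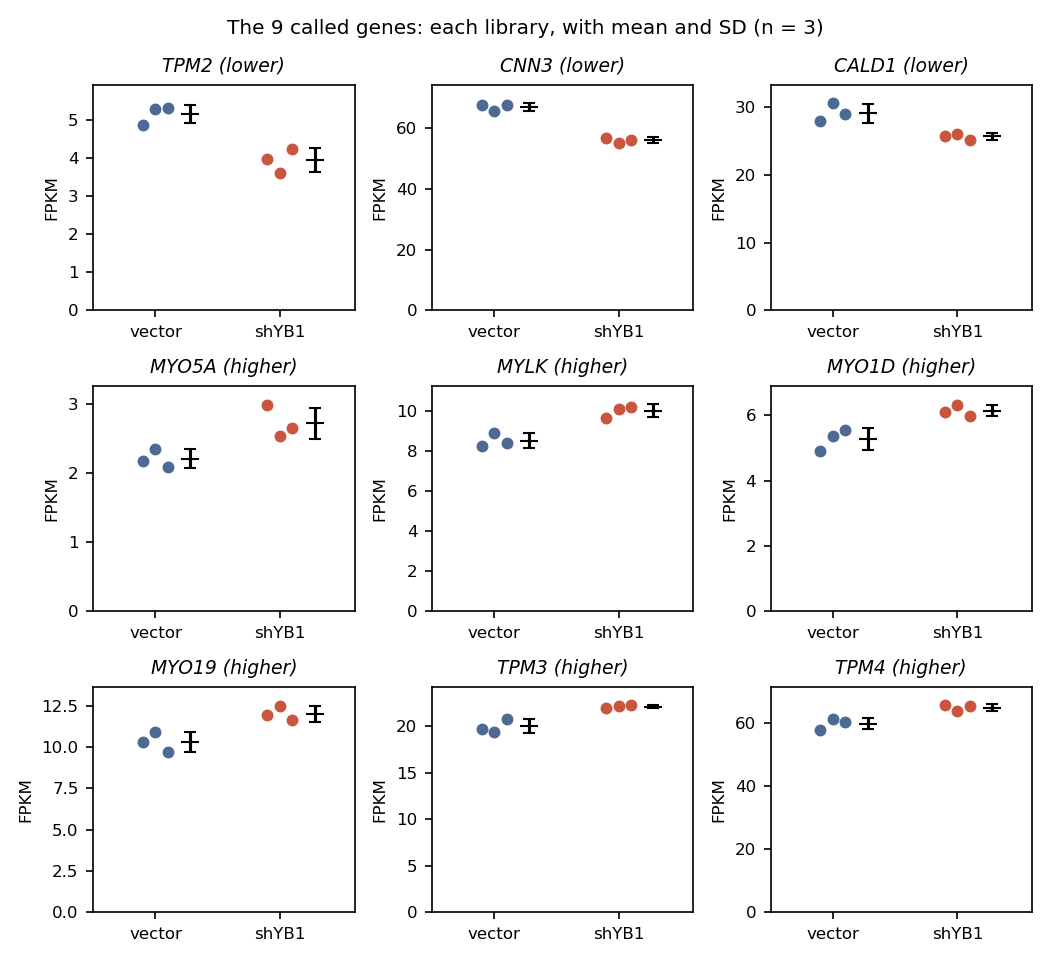
FPKM of the 9 genes called at an adjusted p under 0.05 (limma), one point per library, with the mean and SD of each group of 3 beside the points and every vertical axis starting at 0. In each panel the 3 shYB1 points lie wholly below (TPM2, CNN3, CALD1) or wholly above (the other 6) the 3 vector points.

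In the contractile motor itself, the kinase gene MYLK moved at gene level and the chains did not pass the test. MYLK (chr3:123610049-123884331, minus strand) encodes the calmodulin-dependent kinase that phosphorylates the myosin regulatory light chain. It rose from 8.22, 8.91 and 8.39 FPKM in vector to 9.65, 10.1 and 10.2 FPKM in shYB1 libraries, without overlap (17.6% higher, log2 fold change 0.23, standard error 0.052, adjusted p = 0.00933 from limma). After median-of-ratios rescaling MYLK remained called at 0.18 with an adjusted p of 0.0293, and the adjusted p lay between 0.00588 and 0.0371 over the alternatives. The locus also carries the antisense genes MYLK-AS1 and MYLK-AS2, and the sources do not say whether counting used the strand. A start inside the gene is listed as well. FPKM per gene do not separate transcripts from that start from the long kinase transcript. The other kinases of the family, MYLK2, MYLK3 and MYLK4, had means of 0.0522, 0.0133 and 0.119 FPKM and were not tested.

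Neither non-muscle myosin heavy chain passed the test. MYH9 measured 194, 197 and 205 FPKM in vector and 211 FPKM in each shYB1 library (log2 fold change 0.087, standard error 0.031, adjusted p = 0.0647 from limma). MYH10, the heavy chain of myosin IIB, measured 15.6, 16.4 and 16.2 FPKM in vector and 16.7, 17.1 and 16.8 FPKM in shYB1 libraries (log2 fold change 0.066, adjusted p = 0.266 from limma). Neither gene overlapped between groups, and their proportion was even: MYH10 made up 7.49 ± 0.166% of the pair in vector and 7.39 ± 0.0899% in shYB1 cells. The 5 non-muscle and smooth muscle light chains had a median of 0.0027, and of −0.053 after median-of-ratios rescaling. MYL6, MYL12A, MYL12B, MYL9 and MYL6B had log2 fold changes of 0.0027, 0.041, 0.0078, −1.3e-04 and −0.013, all 5 overlapped between groups, and the 95% confidence interval of MYL6 was −0.082 to 0.088. The signs of MYL6, MYL12A and MYL12B turned after median-of-ratios rescaling. The gene-level ratio of MYLK to MYH9 was 0.0424, 0.0451 and 0.0410 in vector and 0.0457, 0.0481 and 0.0485 in shYB1 libraries, without overlap.

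Neither cytoplasmic actin passed the test. ACTB measured 1319.9, 1337 and 1411 FPKM in vector and 1405, 1421 and 1420.2 FPKM in shYB1 libraries, and ACTG1 measured 1104, 1090.2 and 1146 FPKM in vector and 1141, 1199 and 1209.7 FPKM in shYB1 libraries. In both genes vector replicate 3 reached into the range of the shYB1 group. The log2 fold changes were 0.062 (adjusted p = 0.188) for ACTB and 0.088 (adjusted p = 0.0850) for ACTG1 from limma. Vector replicate 3 also had the highest FPKM total. Without vector replicate 3, ACTB, ACTG1 and MYH9 were called higher (adjusted p = 0.0129, 0.0212 and 0.0155 from limma). After rescaling to a common total these genes and CNN2 were called higher (0.0324, 0.0109, 0.0235 and 0.0412). After median-of-ratios rescaling none of these 4 was called. ACTG1 supplied 45.1 ± 0.393% of cytoplasmic actin FPKM in vector and 45.5 ± 0.621% in shYB1 cells, with overlap. ACTA2, the smooth muscle alpha-actin and the usual marker of myofibroblasts, was low and variable, at 2.19, 2.0 and 2.09 FPKM in vector and 2.39, 1.78 and 1.74 FPKM in shYB1 libraries (log2 fold change −0.096, adjusted p = 0.586 from limma). On the opposite strand ACTA2 overlaps ACTA2-AS1, FAS and STAMBPL1. The alpha-actinins ACTN1 and ACTN4 had log2 fold changes of 0.070 and 0.019 and were not called.

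**Figure D4:**
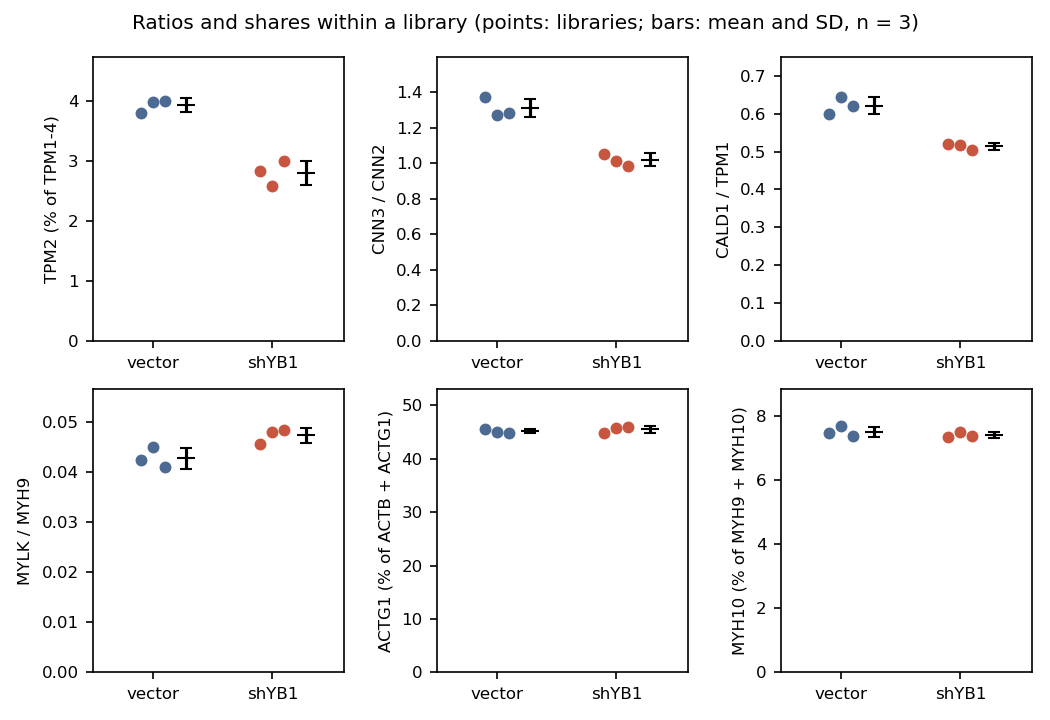
Ratios and shares taken within each library, so that the scaling of the library cancels, with points for libraries and bars for mean and SD (n = 3 per group). TPM2 as a share of tropomyosins, CNN3 over CNN2, CALD1 over TPM1 and MYLK over MYH9 separate the groups, whereas the balance of ACTB and ACTG1 and that of MYH9 and MYH10 overlap. The pairs were chosen after the values had been seen.

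Among the 25 unconventional myosins, 12 were tested and 3 were called by limma at the same threshold, each of them higher (25.0%, against 18.7% of all genes tested). After median-of-ratios rescaling no unconventional myosin was called, against 11.4% higher and 12.0% lower of all genes tested. MYO5A (chr15:52307283-52529050, minus strand), a class V motor that carries organelles along actin, had the largest positive fold change of the 36 genes. It rose from 2.18, 2.35 and 2.09 FPKM to 2.98, 2.54 and 2.65 FPKM (23.3% higher, log2 fold change 0.29, standard error 0.087, adjusted p = 0.0337 from limma). MYO5B, the class V motor of recycling endosomes in epithelia, measured 4.71, 4.63 and 4.58 FPKM in vector and 5.15, 5.30 and 5.11 FPKM in shYB1 libraries, and narrowly missed the threshold (log2 fold change 0.16, adjusted p = 0.0601 from limma). Summed with the scarce MYO5C, class V myosins came to 6.93, 7.07 and 6.71 FPKM in vector and 8.18, 7.94 and 7.81 FPKM in shYB1 libraries.

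MYO19 (chr17:36495633-36543435, minus strand) encodes the myosin that is anchored to mitochondria. It rose from 10.3, 10.9 and 9.69 FPKM to 11.9, 12.5 and 11.6 FPKM (16.4% higher, log2 fold change 0.22, standard error 0.055, adjusted p = 0.0169 from limma, and 0.0626 after median-of-ratios rescaling). The gene overlaps PIGW and ZNHIT3 on the opposite strand. MYO1D (chr17:32492522-32877177, minus strand), a class I motor that links membranes to actin, rose from 4.91, 5.36 and 5.56 FPKM to 6.10, 6.33 and 5.98 FPKM (16.3% higher, log2 fold change 0.22, standard error 0.062, adjusted p = 0.0288 from limma, and 0.0711 after that rescaling). Other class I motors did not pass the test: MYO1C and MYO1E had log2 fold changes of −0.024 and −0.028 at means of 37.8 and 28.8 FPKM. MYO6, MYO9A, MYO9B, MYO10 and MYO18A, with roles in endocytosis, filopodia and the Golgi among them, had log2 fold changes from −0.033 to 0.11 and were not called.

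A list of 10 smooth muscle contractile genes was read across these families. It comprised ACTA2, ACTG2, MYH11, MYL9, MYLK, TAGLN, CNN1, CALD1, TPM1 and TPM2. Of the 10, 6 were tested, 1 rose (MYLK), 2 fell (CALD1 and TPM2) and 3 did not pass the test (ACTA2, MYL9 and TPM1), against 18.7% higher and 6.93% lower among all genes tested. The median log2 fold change of the 6 was −0.048, and that of all genes tested was 0.055. The members that define smooth muscle most narrowly were almost silent: MYH11, the smooth muscle myosin heavy chain, had a mean of 0.00599 FPKM, ACTG2 0.183 FPKM, TAGLN 0.292 FPKM and CNN1 0.310 FPKM. TAGLN lay at 0.409, 0.310 and 0.249 FPKM in vector and 0.207, 0.250 and 0.328 FPKM in shYB1 libraries, and its groups overlapped. ACTG2 was listed at 0 in shYB1 replicate 1 and at 0.187 and 0.131 FPKM in shYB1 replicates 2 and 3, against 0.206, 0.309 and 0.268 FPKM in vector libraries, so every shYB1 value was the lower. CNN1 lay at 0.248, 0.275 and 0.115 FPKM in vector and 0.315, 0.528 and 0.376 FPKM in shYB1 libraries, so every shYB1 value was the higher. Other smooth muscle markers (SMTN, MYOCD, LMOD1, DES and MYH11) summed to 5.42 to 5.77 FPKM in vector and 5.52 to 5.63 FPKM in shYB1 libraries, nearly all of it SMTN. ACTG2, TAGLN, CNN1 and MYH11 were below the limit for testing, so no fold change is given.

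Of the 40 genes under the limit, 9 were listed at 0 in all 6 libraries, namely the cardiac and slow muscle genes MYH6, MYH7, MYL2, MYL3, MYL4 and the fast muscle gene MYL1, the brush border myosins MYO1A and MYO7B, and MYO15A. The highest of the 40 was MYO3A at a mean of 0.688 FPKM, followed by CNN1, TAGLN, ACTG2 and MYLK4. Sarcomeric myosin heavy chains had means of at most 0.057 FPKM with 1 exception. MYH13, a myosin of extraocular muscle, was present at 3.17, 3.0 and 3.0 FPKM in vector and 2.90, 2.72 and 3.18 FPKM in shYB1 libraries (log2 fold change −0.059, adjusted p = 0.616 from limma). MYH13 shares 8.86% of its 50-base words with other myosin heavy chain genes, while its neighbours on chromosome 17, MYH1, MYH2, MYH3, MYH4 and MYH8, had means between 0.0130 and 0.0459 FPKM. The unnamed genes AC005291.1 and AC005291.2 overlap it on the opposite strand.

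SRF (chr6:43171299-43181507, plus strand), the factor that many of these genes answer to, measured 13.7, 12.6 and 14.5 FPKM in vector and 13.4, 13.6 and 15.1 FPKM in shYB1 libraries. The groups overlapped and the log2 fold change of 0.045 (95% confidence interval −0.097 to 0.19) did not pass the test (adjusted p = 0.643 from limma). Promoters were searched on both strands for the CArG box of SRF and for the letters CCAAT or ATTGG, which the study lists as putative Y-box sequences. Windows ran from 250 bases before to 50 after each start (RefSeq, GRCh38.p14). Windows were found for 61 of the 76 genes, 93 windows in all. The other 15 genes had no window and were not searched, so a gene not named below may lack a window or a match. A CArG box stood in 12 of the 93 (12.9%, against 1.29% of all 35116 windows), each in a different gene. They belong to 5 genes that are not expressed or nearly so here (ACTA1, ACTC1, ACTG2, MYL7 and MYO1A) and to ACTG1, ACTN1, CNN2, MYLK, MYO1E, SRF and TPM4. CCAAT or ATTGG stood in 29 of the 93 windows (31.2%, against 34.6% of all windows), or, counted by gene, in 26 of 61 genes (42.6%, against 39.7% of all genes). A match describes the letters and is not evidence of binding.

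The CArG-bearing promoters of SRF and of 4 expressed genes are shown, because this element was more frequent in the promoters of these genes than in all promoters. Each line gives the 250 bases before the start in the direction of transcription, 5′ to 3′, with CArG boxes in capitals.
SRF, chr6:43171019-43171268, plus strand: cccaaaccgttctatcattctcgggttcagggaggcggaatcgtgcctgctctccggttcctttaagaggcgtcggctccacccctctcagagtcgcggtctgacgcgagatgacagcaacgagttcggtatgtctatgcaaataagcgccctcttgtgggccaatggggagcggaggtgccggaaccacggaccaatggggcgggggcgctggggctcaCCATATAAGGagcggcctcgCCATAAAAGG
ACTG1, chr17:81512800-81513049, minus strand: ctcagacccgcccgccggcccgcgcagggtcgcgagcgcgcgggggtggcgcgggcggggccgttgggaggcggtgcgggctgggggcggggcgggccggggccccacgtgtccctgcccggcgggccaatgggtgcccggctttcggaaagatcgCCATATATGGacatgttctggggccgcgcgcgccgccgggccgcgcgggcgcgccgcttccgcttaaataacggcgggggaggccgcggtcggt
CNN2, chr19:1026358-1026607, plus strand: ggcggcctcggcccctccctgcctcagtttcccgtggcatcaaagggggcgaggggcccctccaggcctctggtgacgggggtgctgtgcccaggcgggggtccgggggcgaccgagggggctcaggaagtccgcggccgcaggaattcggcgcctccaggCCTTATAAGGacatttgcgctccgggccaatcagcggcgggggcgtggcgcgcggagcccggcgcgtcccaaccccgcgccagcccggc
TPM4, chr19:16067288-16067537, plus strand: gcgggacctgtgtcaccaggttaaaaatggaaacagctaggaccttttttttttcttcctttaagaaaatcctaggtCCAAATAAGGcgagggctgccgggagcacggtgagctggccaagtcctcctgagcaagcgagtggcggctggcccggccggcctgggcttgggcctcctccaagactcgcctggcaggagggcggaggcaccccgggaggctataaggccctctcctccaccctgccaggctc
MYLK, chr3:123620549-123620798, minus strand: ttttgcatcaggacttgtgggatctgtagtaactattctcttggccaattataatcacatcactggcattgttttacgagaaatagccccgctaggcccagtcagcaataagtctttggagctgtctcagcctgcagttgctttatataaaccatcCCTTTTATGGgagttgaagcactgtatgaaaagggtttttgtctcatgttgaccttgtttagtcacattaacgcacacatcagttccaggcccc
SRF holds 2 boxes, at −30 to −21 and −10 to −1 from the start. ACTG1, CNN2 and MYLK each hold 1, at −94 to −85, −89 to −80 and −94 to −85, and TPM4 holds 1 at −173 to −164. The MYLK start listed lies near the 3′ end of the gene and is an internal start, so the window does not describe the long kinase transcript. Of these 5 genes, MYLK and TPM4 were called higher on FPKM as deposited, and TPM4 kept its call under only 7 of 14 alternatives. ACTG1, CNN2 and SRF did not pass the test, nor did ACTN1 and MYO1E, whose boxes are not printed.

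The 3 genes that fell are shown for their CCAAT or ATTGG letters. None of their windows holds a CArG box, and neither do those of TPM3, MYO19, MYO1D and MYO5A. These were called higher on FPKM as deposited but not after median-of-ratios rescaling. Capitals mark CCAAT or ATTGG. CALD1 has 4 windows, CNN3 and TPM2 have 2 each, and 1 of each is printed. For CNN3 and CALD1 the printed window is the one with the most matches.
CNN3, chr1:94927111-94927360, minus strand: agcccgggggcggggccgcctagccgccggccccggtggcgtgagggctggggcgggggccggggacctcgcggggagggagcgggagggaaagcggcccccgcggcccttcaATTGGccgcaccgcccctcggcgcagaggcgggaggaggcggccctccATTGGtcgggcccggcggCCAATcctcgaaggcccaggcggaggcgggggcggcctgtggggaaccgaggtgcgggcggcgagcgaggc
CALD1, chr7:134745217-134745466, plus strand: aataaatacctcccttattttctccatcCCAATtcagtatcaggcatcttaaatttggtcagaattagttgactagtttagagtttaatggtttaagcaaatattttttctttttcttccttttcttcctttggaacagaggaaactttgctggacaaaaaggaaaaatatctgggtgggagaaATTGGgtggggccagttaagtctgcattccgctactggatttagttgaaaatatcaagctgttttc
TPM2, chr9:35690057-35690306, minus strand: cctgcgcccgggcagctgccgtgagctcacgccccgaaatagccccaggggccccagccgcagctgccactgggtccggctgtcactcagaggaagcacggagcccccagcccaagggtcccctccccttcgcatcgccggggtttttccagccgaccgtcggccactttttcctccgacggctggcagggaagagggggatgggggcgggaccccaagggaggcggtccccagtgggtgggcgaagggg
CNN3 holds 3 matches in this window, at −137 to −133, −89 to −85 and −71 to −67, and CALD1 holds 2, at −222 to −218 and −66 to −62. TPM2 holds none. Among the windows not printed, that of CNN3 holds a match at −97 to −93 and one of CALD1 holds a match at −139 to −135. The other windows of CALD1 and TPM2 hold none. The search covers these windows alone.

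Regulators of actin outside these families were read from 7 lists, 113 genes in all, of which 101 were tested. In shYB1 cells 30 were called higher and 3 lower by limma (29.7% and 2.97%, against 18.7% and 6.93% of all genes tested), with a median log2 fold change of 0.071. After median-of-ratios rescaling the split was 17 higher and 10 lower of the 101, against 11.4% and 12.0% of all genes tested. Among cross-linkers and proteins of the focal adhesion plaque, 11 of 26 tested genes rose (42.3%, against 18.7% of all genes tested). After that rescaling 9 of the 26 were higher and 2 lower, beside the same 11.4% and 12.0%. LCP1, the plastin of leukocytes and many carcinoma lines, which bundles actin, rose from 2.74 ± 0.0842 to 5.15 ± 0.326 FPKM (SD, n = 3 each), or 0.89 on the log2 scale (limma, standard error 0.070, adjusted p = 2.31e-05). The filamin FLNC, which cross-links actin at membranes, rose by a log2 fold change of 0.35, from 23.4 ± 0.449 to 29.7 ± 0.602 FPKM. The leukocyte marker PTPRC was at most 0.0164 FPKM in any library.

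Among actin turnover genes, 6 of 21 rose (28.6%, against 18.7% of all genes tested), led by the cofilin phosphatase SSH1 (log2 fold change 0.28), the profilin PFN1 (0.25) and the twinfilin TWF2 (0.18), and 1 fell, the severing protein GSN (−0.24). The shares to set beside each list here are 18.7% higher and 6.93% lower among all genes tested. After median-of-ratios rescaling they are 11.4% higher and 12.0% lower. The count in the turnover list was 2 higher and 2 lower after that rescaling, which left TWF2 at an adjusted p of 0.0803 from limma. It was 2 to 7 higher when 1 library was left out, the lowest without shYB1 replicate 3. In the Arp2/3 complex, which nucleates branched filaments, ARPC1A fell by 0.26 on the log2 scale and kept its call under all 14 alternatives. ACTR3, ARPC2 and ACTR2 were called higher by 0.12, 0.12 and 0.10 (3 of 9, or 33.3%), but after rescaling these calls were lost (adjusted p = 0.199, 0.228 and 0.285 from limma), and none of the list was called higher without vector replicate 1 or without shYB1 replicate 1. Of 17 tested nucleation promoters and formins, FMNL1 (0.29) and FHOD3 (0.22) rose, or 11.8%, and after rescaling 1 gene was higher and 3 were lower, with FHOD3 at an adjusted p of 0.0729. ELK3, 1 of 6 SRF cofactors tested (16.7%), was called higher by 0.20. AHNAK, 1 of 4 genes tested in a list headed myosin chaperones and regulators (25.0%), was called higher by 0.15. The heading is that of the list, and no role of AHNAK was tested. Neither call held after rescaling (adjusted p = 0.0943 for ELK3 and 0.155 for AHNAK from limma). ELK3 also lost its call without vector replicate 1 or shYB1 replicate 1 or 3, and AHNAK without vector replicate 1 or 3 or shYB1 replicate 1 or 2.

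**Figure D5:**
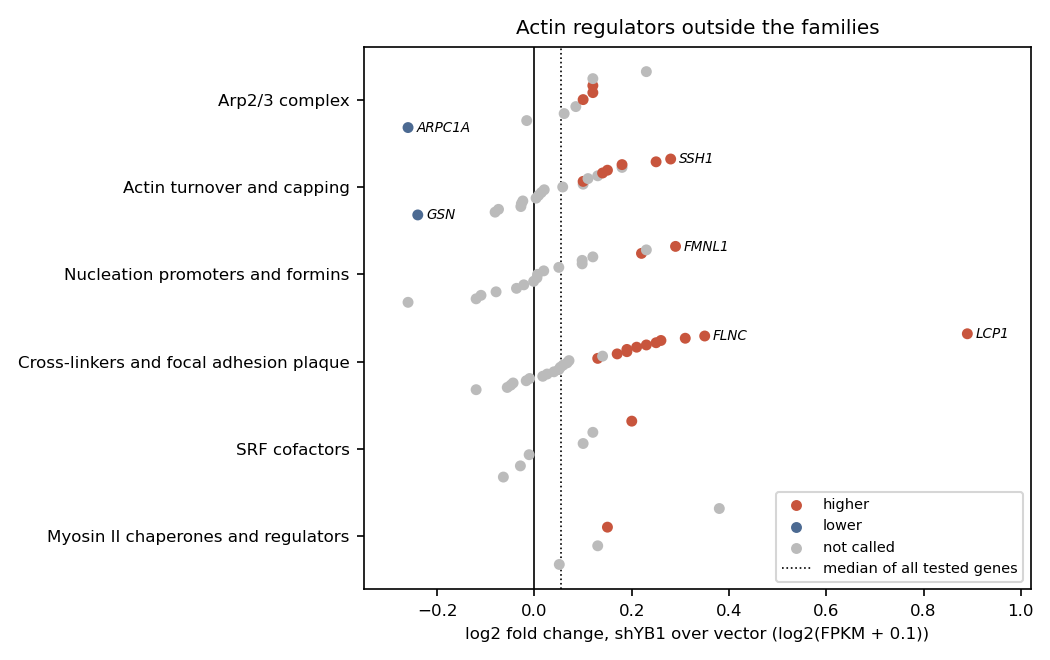
Log2 fold change of shYB1 over vector cells for 83 tested regulators of actin in 6 of the lists, one point per gene, coloured where the adjusted p from limma was under 0.05, with the median of all tested genes as a dotted line. Higher calls outnumber lower calls by 24 to 2 (18.7% were higher and 6.93% lower among all genes tested), and LCP1 stands apart at 0.89.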

How the data were processed

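Total RNA of 786-O cells was sequenced in 3 vector and 3 shYB1 libraries, and groups were taken from the labels. The values are FPKM per gene, which the authors computed and deposited. The submitters' processing notes name Trimmomatic, HISAT2, Cufflinks, HTSeq and DESeq and the build GRCh38, without their roles. Filters and strand setting are not given in the sources used here, and the study's methods call the assay a microarray although the deposited values are sequencing FPKM. No column of another sample was present, and depth in reads is unknown. FPKM carry no read counts, so no counting intervals are given.

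Genes averaging 1 FPKM or more across all libraries were tested with limma 3.58.1 (R 4.3.3, expression trend and robust prior) on log2(FPKM + 0.1), shYB1 against vector, with Benjamini-Hochberg adjustment over all 10439 genes and a threshold of 0.05. The script was tested on simulated data. Ratios and single values were compared by two-sided exact permutation tests, which cannot go below 0.1 here. Gene positions and 50-base words came from the GENCODE annotation of GRCh38, and promoters from RefSeq (GRCh38.p14).

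Named genes were YBX1, all called genes, the 10 highest, SRF, the smooth muscle list, the 5 highest genes under the filter, and in each regulator list up to 3 called genes per direction with the largest change. Other genes of the families, such as CNN2, MYH10, MYH13, MYO5B and ACTN1, were named after their values were seen. Some genes and 1 regulator list are not reported here by name, though the counts include them. The genes and lists were chosen with earlier results of these data known. Alternatives were median-of-ratios size factors, a common total, pseudocounts of 1 and 0.01, no filter, a filter of 5 FPKM, no expression trend or robust prior, a replicate block, and leaving out each library.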

Additional observations from a re-analysis of the deposited data

How the results depend on the processing

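With median-of-ratios size factors, 1192 of all genes tested were higher and 1253 lower, 1 actin, myosin or tropomyosin gene was higher, and 17 regulators were higher and 10 lower. Higher calls among the actin, myosin and tropomyosin genes numbered 10 with a common total and 3 with no filter. Leaving out one library gave 2 to 9 higher and 3 lower genes of these families, 18 to 29 higher and 3 lower regulators, and 1323 to 1944 higher and 513 to 606 lower genes overall. Directions of genes near 0 turned. With size factors ACTN4 was −0.036, MYL12A −0.014, MYL12B −0.047, MYL6 −0.053 and SRF −0.0100, and with a common total MYL6 was −0.0016. Leaving out one library, MYL12B ran from −0.030 to 0.036, MYL6 from −0.025 to 0.034, MYL9 from −0.029 to 0.052 and SRF from −0.0099 to 0.093. Of 291 values of 21 genes under the alternatives, 238 kept direction and side of the threshold, 28 lost the call, 10 gained it and 15 turned. The cause was not tested.

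Replicate numbers are shared between the groups, and whether they mark pairs is not stated. Deviations of same-numbered libraries correlated at −0.169 to −0.00824 and those of other pairs at −0.0507 to 0.113. Pairing was not seen in these values, which with 3 libraries per group cannot exclude it. With the replicate block, 2074 genes were higher and 760 lower, and 9 genes of these families were higher, ACTG1 and MYH9 among those gained, and 3 lower. In either direction, 33.3% of the tested genes of these families were called, against 27.1% of all genes tested. Regulators numbered 35 higher and 3 lower.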
